A study of Homo sapiens with 10 samples.

Results

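The mitosis genes described here are 57 genes for the kinases, checkpoint proteins, kinetochore parts, motors and cytokinesis proteins that carry a cell through division. They were taken by name, as a list of known regulators and machinery of mitosis, with earlier results of these data known. All 57 have a row among the 23089 genes of the count table. The counts come from total RNA, depleted of ribosomal RNA, of the human osteosarcoma line U2OS, made 3 days after transfection with a single siRNA against H2A.Z.1 (siH2A.Z.1), a single siRNA against H2A.Z.2 (siH2A.Z.2), both together (siH2A.Z.1+2, combined depletion), or control siRNA number 3 or 4 (siCtrl 3, siCtrl 4). Each of the 5 conditions has 2 libraries, so there are 10 libraries, and all received an siRNA. The histone variant H2A.Z has an isoform H2A.Z.1, made from the gene H2AFZ, and an isoform H2A.Z.2, made from H2AFV, and the question is how far mitosis genes depend on either of them. By the study's methods the 2 samples of a condition were separate transfections done side by side, and the labels name no further source of variation. P-values therefore measure the spread between such parallel samples. Where the 4 control libraries form 1 group, that spread also holds the gap between siCtrl 3 and siCtrl 4.

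Mitosis genes are transcribed late in the cell cycle, in G2 and M, and their mRNAs fade as cells enter G1. In quiescent or arrested cells the DREAM complex, built on the MuvB core with E2F4 or E2F5 and the RBL1 or RBL2 proteins, holds them off. In dividing cells the MuvB core changes partners and joins MYBL2 and then FOXM1 to switch them on. Many of their promoters carry a cell cycle homology region (CHR), where the MuvB core sits, and CCAAT boxes, which bind the factor NF-Y. H2A.Z lies on the nucleosomes that flank active start sites.

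RefSeq promoters (build GRCh38.p14, 250 bases before to 50 after the start) were at hand for 47 of the 57 genes. They were searched on both strands for TTTGAA or TTCGAA as the CHR, and for CCAAT. The CHR letters stood in 33 of the 47 promoters (70.2%, against 13.1% of the 15738 promoters of all genes in the table). CCAAT stood in 37 of 47 (78.7%, against 36.1%), and 29 of 47 held both (61.7%, against 5.33%). E2F-type letters (TTTCCCGC, TTTGGCGC or TTTCGCGC) stood in 3 of 47 (6.38%, against 3.75%). A match describes the letters only, and matches of different motifs may overlap. The 4 promoters printed next belong to members that the results turn on and differ in these letters, with CHR and CCAAT matches in capitals, on either strand, all else in lower case and the direction that of transcription. CCNB2 (cyclin B2) holds 4 CCAAT boxes and a CHR, PLK1 (the mitotic kinase PLK1) holds 1 of each, NEK2 (a centrosome kinase) holds 2 CCAAT boxes and no CHR letters, and ANLN (anillin, a scaffold of the contractile ring) holds the CHR letters on both strands, side by side, and no CCAAT.
CCNB2 promoter, chr15:59104896-59105195, plus strand: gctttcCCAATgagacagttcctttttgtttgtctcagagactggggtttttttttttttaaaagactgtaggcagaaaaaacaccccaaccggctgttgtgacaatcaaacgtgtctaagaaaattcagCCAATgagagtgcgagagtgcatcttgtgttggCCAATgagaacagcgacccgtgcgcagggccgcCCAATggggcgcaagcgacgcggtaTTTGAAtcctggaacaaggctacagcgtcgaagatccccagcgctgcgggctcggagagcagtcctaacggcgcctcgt
PLK1 promoter, chr16:23678639-23678938, plus strand: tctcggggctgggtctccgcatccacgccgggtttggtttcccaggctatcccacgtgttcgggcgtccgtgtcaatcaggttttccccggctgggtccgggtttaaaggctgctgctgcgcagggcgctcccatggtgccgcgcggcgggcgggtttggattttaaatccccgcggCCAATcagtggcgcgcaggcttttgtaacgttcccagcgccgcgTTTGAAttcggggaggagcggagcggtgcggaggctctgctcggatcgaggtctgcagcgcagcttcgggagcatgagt
NEK2 promoter, chr1:211675572-211675871, minus strand: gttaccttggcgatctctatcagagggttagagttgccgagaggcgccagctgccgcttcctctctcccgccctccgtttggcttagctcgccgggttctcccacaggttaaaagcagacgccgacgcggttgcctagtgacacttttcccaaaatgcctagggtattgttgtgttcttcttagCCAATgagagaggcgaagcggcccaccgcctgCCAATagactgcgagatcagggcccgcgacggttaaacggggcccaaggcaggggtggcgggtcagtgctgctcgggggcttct
ANLN promoter, chr7:36389612-36389911, plus strand: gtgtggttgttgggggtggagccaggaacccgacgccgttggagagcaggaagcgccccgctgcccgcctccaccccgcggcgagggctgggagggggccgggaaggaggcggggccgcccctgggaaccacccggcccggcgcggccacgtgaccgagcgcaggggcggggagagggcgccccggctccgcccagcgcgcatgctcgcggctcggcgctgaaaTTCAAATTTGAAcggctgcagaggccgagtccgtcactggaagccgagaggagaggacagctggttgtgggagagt

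The siRNAs used for depletion are shown as their sense strand of 19 bases, since every depletion comparison rests on 1 siRNA per isoform. Capitals mark the letters that pair with bases 2 to 8 of the guide, the seed. Searched over the GENCODE v44 transcripts, the whole sequence matched H2AZ1 and H2AZ2, the present symbols of H2AFZ and H2AFV, respectively and no other gene.
siH2A.Z.1 sense strand: guaguggguuuUGAUUGAg
siH2A.Z.2 sense strand: ggugacaguugUGUGUUGa

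The 10 libraries held 16716990 to 26946836 counts, and the lowest count of any mitosis gene in any library was 258. Levels are given as CPM, counts scaled to the same total in every library with TMM factors. H2AFZ was at 19.1 to 22.5 CPM in the 4 libraries with siH2A.Z.1 and at 203 to 279.7 CPM in the other 6. H2AFV was at 61.9 to 80.3 CPM in the 4 libraries with siH2A.Z.2 and at 143 to 249 CPM in the other 6. The siCtrl 4 libraries stood at the low end of the latter range for both genes. H2AFV was at 143 and 148 CPM, against 249 and 241 with siCtrl 3, a log2 difference of -0.75 (SE 0.07, edgeR adjusted p = 1.32e-05). H2AFZ was at 203 and 228 CPM, against 279.7 and 279 with siCtrl 3, a log2 difference of -0.37 (SE 0.07, edgeR adjusted p = 0.00121). Of the 10 bone and mesenchymal markers, VIM (1506 to 3544 CPM), SPARC (1554 to 2127), COL1A1 (374 to 1364) and COL5A1 (85.4 to 367) were high, and RUNX2, a bone transcription factor, was at 10.8 to 22.9 CPM. SPP1 (1.19 to 9.98 CPM) and ALPL (0.397 to 7.88 CPM) were low, and SP7 (at most 0.108 CPM), BGLAP (at most 0.454 CPM) and COL1A2 (4 to 28 counts) were near 0. Of the markers of other cell types, only KRT18 was high (214 to 427 CPM). EPCAM, CDH1, KRT5, PTPRC, CD34, CD3E, PECAM1 and CDH5 stayed at or under 3.99 CPM.

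The mitosis genes differed first of all between the control siRNAs. Together the 57 genes took 9228 and 9551 CPM in the siCtrl 3 libraries and 5615 and 6125 CPM in the siCtrl 4 libraries. They took 6386 and 6374 CPM upon H2A.Z.1 depletion, 9253 and 10018 CPM upon H2A.Z.2 depletion and 8087 and 7484 CPM upon combined depletion. As a share of the siCtrl 3 mean of 9389.6 ± 228 CPM (SD, n = 2), the siCtrl 4 mean was 62.5%, H2A.Z.1 depletion 67.9%, combined depletion 82.9% and H2A.Z.2 depletion 103%. The libraries of H2A.Z.1 depletion and of combined depletion thus lay between those of the controls, above siCtrl 4 and below siCtrl 3, and only the H2A.Z.2 libraries reached the siCtrl 3 level. These are bulk samples, in which fewer cells in G2 and M and less mRNA per such cell cannot be told apart. Per kilobase of exons, the members with the highest siCtrl 3 level were TOP2A (DNA topoisomerase II alpha, 132 CPM per kb), CCNB1 (cyclin B1, 128), FOXM1 (96.3) and CDC20 (activator of the anaphase-promoting complex, 91.1). The lowest were CDC25C (a CDK1 phosphatase, 7.43 CPM per kb) and MAD2L1 (a spindle checkpoint protein, 6.95).

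**Figure D1:**
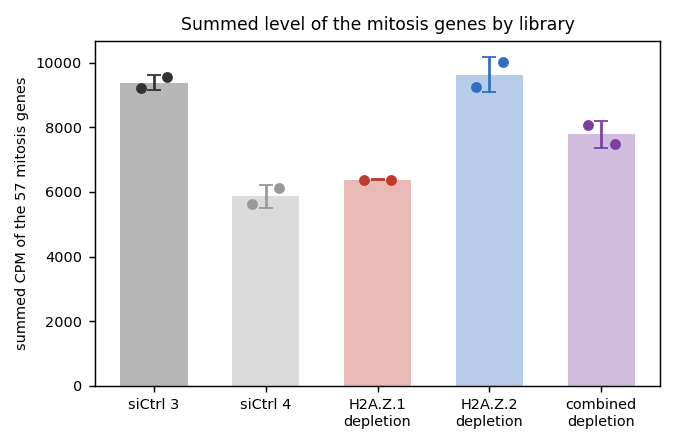
Summed CPM of the 57 mitosis genes (vertical axis, from 0) in each condition, with bars for the mean of 2 libraries, error lines for the SD and points for the libraries. The siCtrl 4 mean was 62.5% of the siCtrl 3 mean, and the H2A.Z.1 and combined depletions lay between them.

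The control siRNAs were compared first, since every depletion is measured against them. Between the 2 siCtrl 4 and the 2 siCtrl 3 libraries, 51 of the 57 mitosis genes were lower and 0 were higher with siCtrl 4. A gene was called here and in every comparison at an adjusted p under 0.05 and a log2 fold change beyond 0.32 in either direction, by edgeR's quasi-likelihood F test with Benjamini-Hochberg adjustment over all genes tested. Of all 16486 genes tested, 17.3% were called lower and 17.2% higher. In 55 of the 57 both siCtrl 4 values were below both siCtrl 3 values (all genes, 35.9%), and in none were they above (all genes, 36.6%). The median log2 difference, siCtrl 4 over siCtrl 3, was -0.68 over the members and 0.01 over all genes tested. DESeq2 called 51 members as well, all lower (all genes, 2422 lower and 2429 higher of 23089).

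The widest of these gaps were those of CCNB1, KIF20A and CDCA3. CCNB1, the cyclin that activates CDK1 at entry into mitosis (chromosome 5, 69167135 to 69178245, as are all gene positions here in build hg38 by GENCODE v44), measured 304 and 317 CPM with siCtrl 3, 112 and 132 with siCtrl 4, 189.8 and 194 with siH2A.Z.1, 251 and 271 with siH2A.Z.2 and 219 and 197 with both. Its siCtrl 4 values were the lowest of the 10 libraries, with a log2 difference from siCtrl 3 of -1.35 (SE 0.08, edgeR adjusted p = 3.91e-07). KIF20A, a kinesin of the central spindle, differed by -1.14 (SE 0.09, edgeR adjusted p = 3.31e-06). CDCA3, an adaptor for the degradation of WEE1, differed by -1.07 (SE 0.08, edgeR adjusted p = 2.47e-06). Of the other members called, CDC20 was lower by a log2 difference of -0.94, BUB1 by -0.93, AURKB by -0.80, TOP2A by -0.80, MKI67 by -0.74, CDK1 by -0.63, FOXM1 by -0.53 and PLK1 by -0.44. The 6 that were not called were BUB3, UBE2S, CDC25B, MYBL2, UBE2C and MAD2L1. BUB3 (-0.04, SE 0.07) and UBE2S (-0.11, SE 0.19) were the only members whose control libraries overlapped, and CDC25B (-0.23, SE 0.08) came next. Calls came from every role group: all 8 kinesins, all 8 kinetochore genes, all 8 other spindle proteins, all 4 genes of the chromosomal passenger complex, all 3 chromosome genes and all 3 cytokinesis genes were called lower with siCtrl 4, as were 10 of 11 entry genes.

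**Figure D2:**
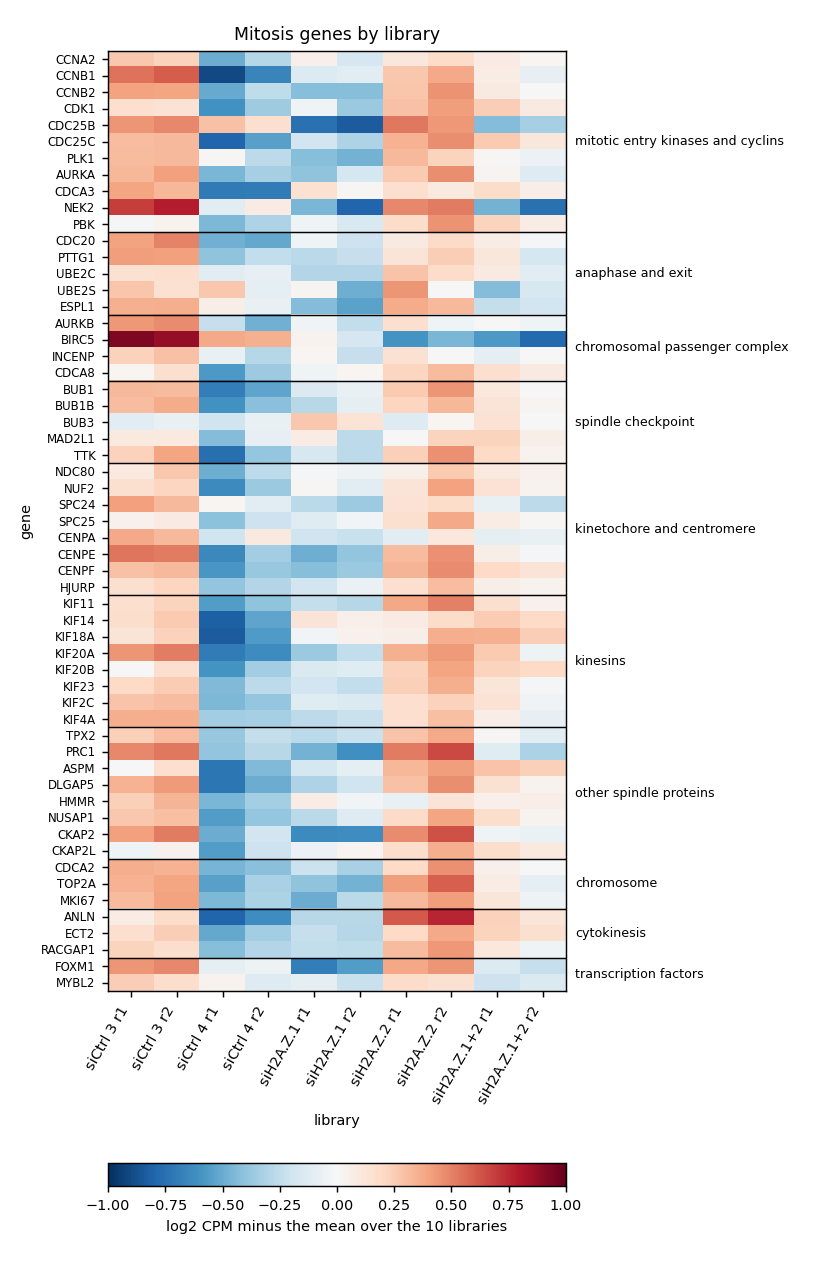
Log2 CPM of each mitosis gene minus its own mean over the 10 libraries (colour), with genes in rows by role and libraries in columns. The siCtrl 3 and siH2A.Z.2 columns are mostly above the mean and the siCtrl 4 columns below it, while CDC25B, BIRC5 and BUB3 depart from that pattern.

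Against the 4 control libraries taken as 1 group, H2A.Z.1 depletion down-regulated 5 mitosis genes and up-regulated 0. The 5 were CDC25B, NEK2, FOXM1, BIRC5 and ESPL1. They are 8.77% of the members, where 15.7% of all 16112 genes tested were called down and 12.2% up. The median log2 fold change was -0.19 over the members and -0.02 over all genes tested, and 44 of the 57 were below 0. In 10 members both depleted libraries were below all 4 control libraries (all genes, 27.0%), and in 1, BUB3, they were above (all genes, 27.4%). DESeq2 called 8 members, all down (all genes, 2221 up and 2975 down of 22385). Without either siH2A.Z.1 library only CDC25B was called, and without either siCtrl 3 library CDC25B, ESPL1 and FOXM1.

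Among the genes of mitotic entry, 2 of 11 were called. CDC25B, a phosphatase that starts the activation of CDK1 and cyclin B (chromosome 20, 3786772 to 3806121), measured 112 and 115 CPM with siCtrl 3, 101 and 92.4 with siCtrl 4, 49.0 and 46.2 with siH2A.Z.1, 118 and 111 with siH2A.Z.2 and 60.9 and 65.4 with both. Its 4 control libraries spanned a narrow range, the siH2A.Z.1 libraries were well below it, and its log2 fold change upon H2A.Z.1 depletion was -1.15 (SE 0.13, edgeR adjusted p = 0.00148). NEK2, which drives the separation of centrosomes (chromosome 1, 211658657 to 211675630), measured 53.0 and 56.7 CPM with siCtrl 3, 30.6 and 34.8 with siCtrl 4, 23.9 and 19.0 with siH2A.Z.1, 45.9 and 47.2 with siH2A.Z.2 and 23.6 and 19.6 with both. It was lowest in the 4 libraries with siH2A.Z.1, singly or combined, and its log2 fold change was -1.04 (SE 0.29, edgeR adjusted p = 0.0388). CDK1, the kinase of mitotic entry, measured 151 and 149 CPM with siCtrl 3, 88.5 and 105 with siCtrl 4, 131 and 104 with siH2A.Z.1, 165 and 179.6 with siH2A.Z.2 and 159.8 and 143 with both. Its siH2A.Z.1 values overlapped those of the controls, with a log2 fold change of -0.08 (SE 0.25, edgeR adjusted p = 0.831). For CCNB1, shown above, the value was -0.18 (SE 0.45, edgeR adjusted p = 0.792), with an SE that covers the gap between the control siRNAs. CDCA3 had the highest value of this group, 0.14 (SE 0.36, edgeR adjusted p = 0.796). PLK1, which acts from entry to cytokinesis (chromosome 16, 23677656 to 23690367), measured 66.6 and 66.7 CPM with siCtrl 3, 53.9 and 44.5 with siCtrl 4, 39.7 and 38.5 with siH2A.Z.1, 67.0 and 62.2 with siH2A.Z.2 and 53.8 and 51.3 with both. Its siH2A.Z.1 libraries lay below all controls, but the change of -0.58 (SE 0.19, edgeR adjusted p = 0.0585) was not called.

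The transcription factor FOXM1, which activates mitosis genes with the MuvB core (chromosome 12, 2857680 to 2877174), measured 468 and 479.6 CPM with siCtrl 3, 322 and 332 with siCtrl 4, 213 and 234 with siH2A.Z.1, 450.2 and 468 with siH2A.Z.2 and 313 and 293 with both. The siH2A.Z.1 libraries were the lowest, the combined libraries came next, just under siCtrl 4, and FOXM1 was down-regulated upon H2A.Z.1 depletion with a log2 fold change of -0.85 (SE 0.21, edgeR adjusted p = 0.0232). MYBL2, which acts with the MuvB core before FOXM1, measured 232 and 221 CPM with siCtrl 3, 199.7 and 179 with siCtrl 4, 184 and 168 with siH2A.Z.1, 222 and 217 with siH2A.Z.2 and 169.8 and 177 with both. Its siH2A.Z.1 values overlapped the siCtrl 4 values, and the change of -0.25 (SE 0.13, edgeR adjusted p = 0.187) was not called.

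In the chromosomal passenger complex, which corrects faulty attachments of chromosomes to the spindle, BIRC5 alone was called. BIRC5, or survivin, the subunit that brings the complex to centromeres (chromosome 17, 78214186 to 78225636), measured 212 and 204 CPM with siCtrl 3, 144 and 142 with siCtrl 4, 114 and 98.7 with siH2A.Z.1, 73.1 and 80.7 with siH2A.Z.2 and 74.6 and 64.6 with both. All 6 depleted libraries were below all 4 controls, and the log2 fold change upon H2A.Z.1 depletion was -0.73 (SE 0.21, edgeR adjusted p = 0.0403). AURKB, the kinase of the complex, measured 34.6 and 35.4 CPM with siCtrl 3, 21.8 and 18.3 with siCtrl 4, 25.0 and 21.5 with siH2A.Z.1, 28.6 and 24.8 with siH2A.Z.2 and 25.6 and 24.8 with both. Of its siH2A.Z.1 values 1 lay within the siCtrl 4 range and 1 between the control siRNAs, with a log2 fold change of -0.25 (SE 0.30, edgeR adjusted p = 0.560). CDCA8, or borealin, had the highest value of the 4 subunits, 0.14 (SE 0.21, edgeR adjusted p = 0.656).

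Of the anaphase and exit genes, ESPL1 was called, the separase that cuts cohesin at anaphase (chromosome 12, 53268299 to 53293638). It measured 139.7 and 141 CPM with siCtrl 3, 114 and 104 with siCtrl 4, 81.0 and 75.4 with siH2A.Z.1, 141 and 137 with siH2A.Z.2 and 92.9 and 95.6 with both, with the siH2A.Z.1 libraries lowest, and its log2 fold change was -0.68 (SE 0.16, edgeR adjusted p = 0.0197). CDC20 measured 178 and 189 CPM with siCtrl 3, 96.4 and 94.3 with siCtrl 4, 130.3 and 116 with siH2A.Z.1, 143 and 154 with siH2A.Z.2 and 141 and 133 with both. Its siH2A.Z.1 libraries lay between the control siRNAs, and it had the highest value of this group, -0.19 (SE 0.33, edgeR adjusted p = 0.703).

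No member of the other role groups was called upon H2A.Z.1 depletion, and their lowest and highest members were as follows. In the spindle checkpoint, which delays anaphase until every kinetochore is attached, BUB1B was lowest at -0.17 (SE 0.30, edgeR adjusted p = 0.707). BUB3, which recruits BUB1 and BUB1B to kinetochores (chromosome 10, 123154402 to 123170467), was highest. It measured 229 and 234 CPM with siCtrl 3, 214 and 234 with siCtrl 4, 297 and 270.3 with siH2A.Z.1, 225 and 248 with siH2A.Z.2 and 272 and 246 with both, so that its siH2A.Z.1 values were above every control, yet its log2 fold change of 0.31 (SE 0.09, edgeR adjusted p = 0.0460) did not pass the fold threshold. BUB1, the checkpoint kinase, measured 167 and 167 CPM with siCtrl 3, 82.6 and 92.9 with siCtrl 4, 121 and 127 with siH2A.Z.1, 160.1 and 182 with siH2A.Z.2 and 144 and 133 with both, again with the siH2A.Z.1 libraries between the controls, and had a log2 fold change of -0.05 (SE 0.32, edgeR adjusted p = 0.918).

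At kinetochores, CENPE, a motor that moves chromosomes to the spindle equator, was lowest at -0.56 (SE 0.36, edgeR adjusted p = 0.284) and NUF2, a part of the NDC80 complex that grips microtubules, was highest at 0.06 (SE 0.26, edgeR adjusted p = 0.885). Among kinesins the ends were KIF20A at -0.34 (SE 0.39, edgeR adjusted p = 0.555) and KIF14, a motor of cytokinesis, at 0.23 (SE 0.31, edgeR adjusted p = 0.613). Of the other spindle proteins CKAP2 was lowest at -0.76 (SE 0.30, edgeR adjusted p = 0.102) and its paralog CKAP2L highest at 0.15 (SE 0.17, edgeR adjusted p = 0.554).

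Of the chromosome genes, TOP2A measured 824 and 853 CPM with siCtrl 3, 445 and 517 with siCtrl 4, 491 and 467 with siH2A.Z.1, 867 and 977 with siH2A.Z.2 and 682 and 606 with both. Its siH2A.Z.1 libraries lay within the siCtrl 4 range, and the change of -0.47 (SE 0.29, edgeR adjusted p = 0.257) was the lowest of its group. MKI67, the Ki-67 protein that coats mitotic chromosomes, measured 907 and 962 CPM with siCtrl 3, 532 and 583 with siCtrl 4, 515 and 604 with siH2A.Z.1, 912 and 970.3 with siH2A.Z.2 and 793 and 703 with both. It had a log2 fold change of -0.43 (SE 0.27, edgeR adjusted p = 0.275) and 1 siH2A.Z.1 library below all controls. CDCA2, which brings a phosphatase to anaphase chromosomes, was highest at -0.29 (SE 0.28, edgeR adjusted p = 0.477). The cytokinesis genes ran from RACGAP1, a part of centralspindlin, at -0.21 (SE 0.21, edgeR adjusted p = 0.487) to ANLN at -0.06 (SE 0.29, edgeR adjusted p = 0.895).

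**Figure D3:**
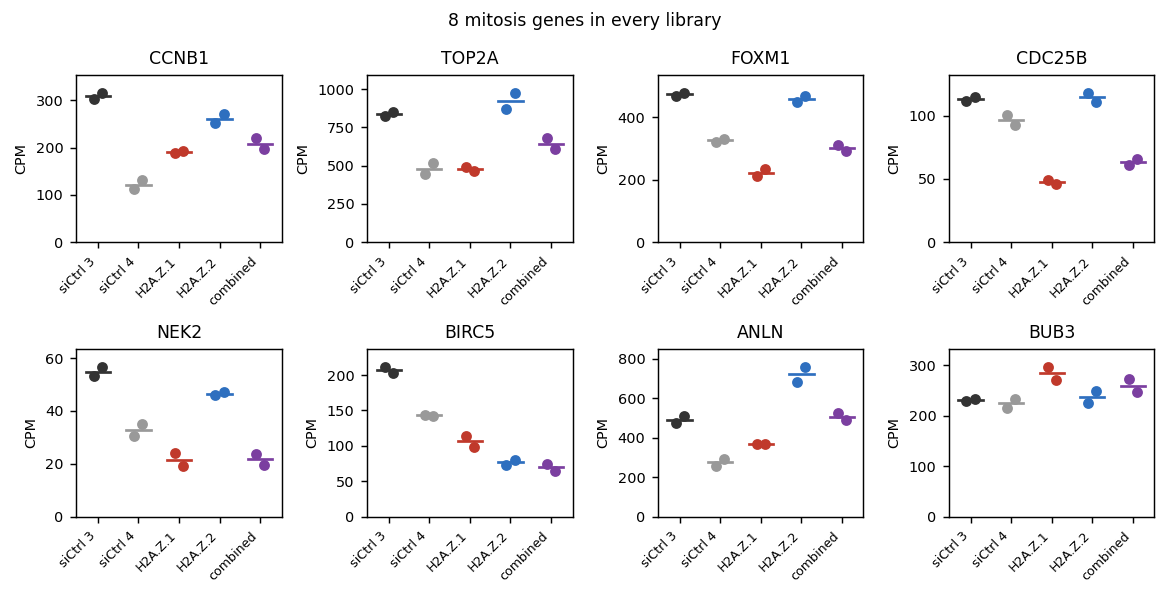
CPM of 8 mitosis genes (vertical axes, from 0) in every library, with points for libraries and lines for the mean of 2. CCNB1 and TOP2A separate the control siRNAs, FOXM1, CDC25B and NEK2 are lowest in libraries with siH2A.Z.1, BIRC5 is low in all depleted libraries, ANLN is highest with siH2A.Z.2 and BUB3 is high in libraries with siH2A.Z.1.

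The call for most mitosis genes depended on which control siRNA was used. Against siCtrl 3 alone, H2A.Z.1 depletion down-regulated 41 of 57 and up-regulated 0 (all genes, 25.4% down and 22.4% up). Against siCtrl 4 alone it down-regulated 6 and up-regulated 21 (all genes, 28.0% down and 25.0% up). The median log2 fold change over the members was -0.49 against siCtrl 3 and 0.21 against siCtrl 4, while over all genes tested it was 0.01 and -0.01. Only 6 members were called down against both, namely CDC25B, NEK2, FOXM1, BIRC5, ESPL1 and PLK1. In 9 members the calls were opposite, down against siCtrl 3 and up against siCtrl 4: ANLN, BUB1, BUB1B, CCNB1, CDC20, CDC25C, DLGAP5, KIF20A and TTK. The shares of all genes with the same or opposite calls were not counted, so these patterns cannot be called particular to mitosis genes. CCNB1 had a log2 fold change of -0.70 (SE 0.07, edgeR adjusted p = 1.55e-05) against siCtrl 3 and of 0.65 (SE 0.10, edgeR adjusted p = 8.63e-05) against siCtrl 4. For CDC25B the values were -1.26 (SE 0.07, edgeR adjusted p = 6.2e-07) and -1.02 (SE 0.10, edgeR adjusted p = 1.16e-06). FOXM1 gave -1.09 (SE 0.07, edgeR adjusted p = 1.72e-06) and -0.55 (SE 0.10, edgeR adjusted p = 0.000187), NEK2 -1.36 (SE 0.11, edgeR adjusted p = 5.73e-06) and -0.61 (SE 0.14, edgeR adjusted p = 0.00171), and PLK1 -0.78 (SE 0.08, edgeR adjusted p = 2.01e-05) and -0.33 (SE 0.12, edgeR adjusted p = 0.0270). HJURP, MAD2L1, PBK and SPC25 were called against neither.

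**Figure D4:**
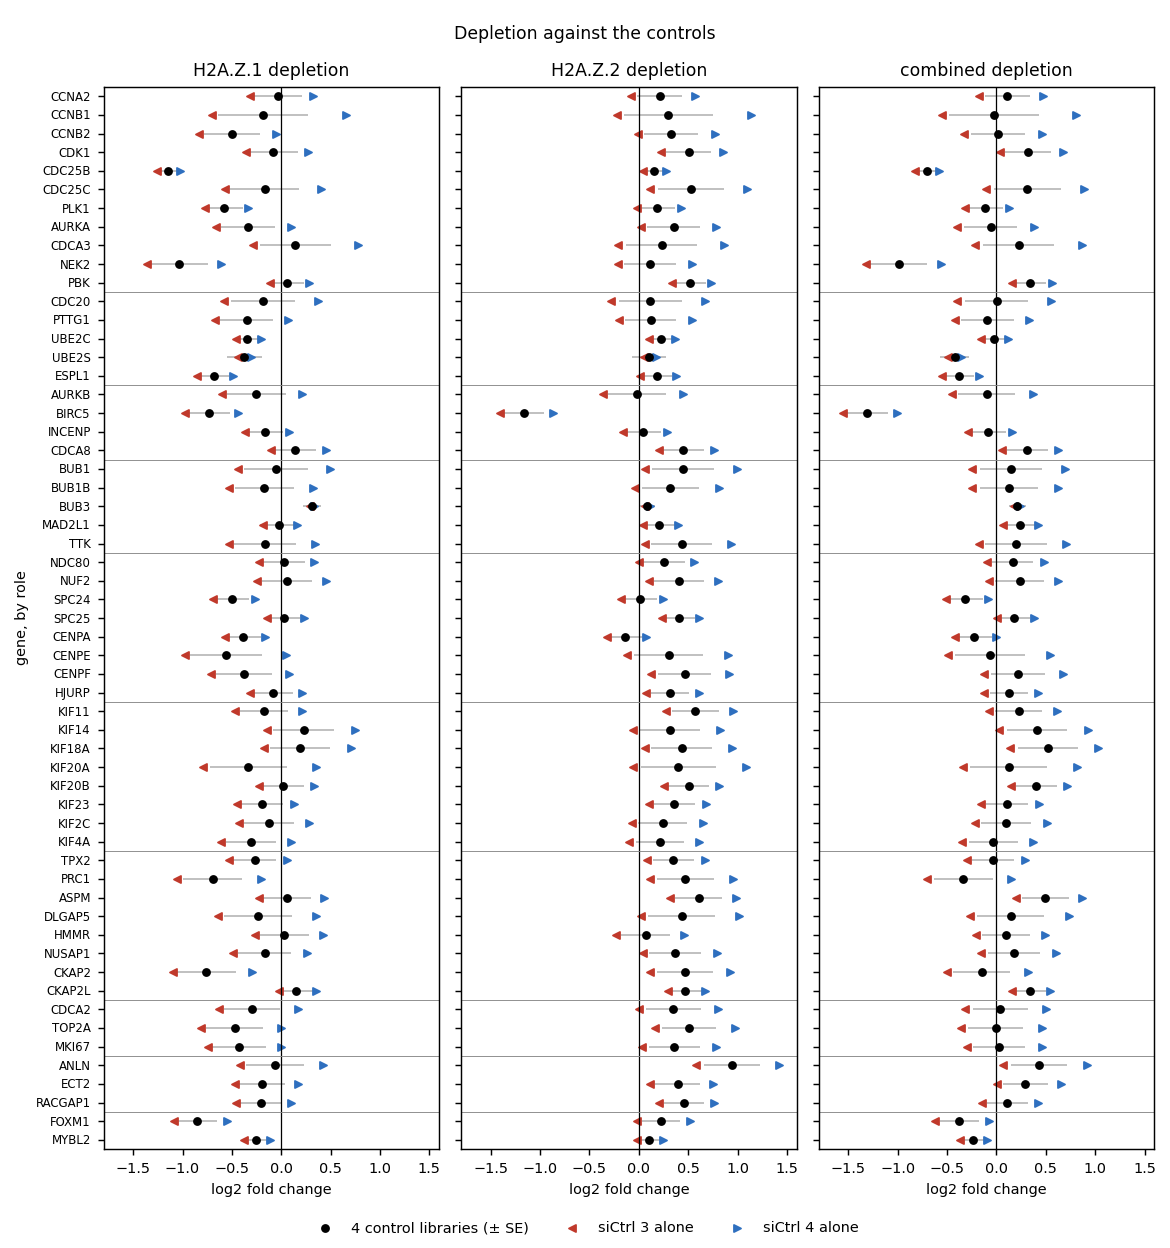
Log2 fold change of each mitosis gene (rows, by role) upon each depletion against all 4 control libraries (black, ± SE), against siCtrl 3 alone (red) and against siCtrl 4 alone (blue). The red point is below 0 and the blue point above 0 for 41 genes upon H2A.Z.1 depletion and for 35 upon combined depletion, while those of BIRC5 are below 0 upon all 3 depletions. The shares of all genes with these patterns were not counted.

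Upon H2A.Z.2 depletion no mitosis gene was called against the 4 control libraries by edgeR (all genes called, 0.605% up and 0.179% down). At an unadjusted p under 0.05 were 8 of the 57 members and 2223 of all 16188 genes tested. H2AFV, the target of this siRNA, was not called in this comparison either, at -1.59 (SE 0.28, edgeR adjusted p = 0.0754). A lack of calls here thus does not show a lack of change. DESeq2 called 1 member, down (all genes, 406 up and 267 down of 22422). The median log2 fold change was 0.33 over the members and -0.00 over all genes tested, and 54 of 57 were above 0. In 14 members both libraries were above all 4 controls (all genes, 13.8%), and in 1, BIRC5, they were below (all genes, 14.0%). ANLN (chromosome 7, 36389821 to 36453791) measured 473 and 509 CPM with siCtrl 3, 259 and 291 with siCtrl 4, 369.9 and 369.7 with siH2A.Z.1, 685 and 760.2 with siH2A.Z.2 and 527 and 488 with both. The siH2A.Z.2 libraries were the highest of all, and the log2 fold change was 0.94 (SE 0.28, edgeR adjusted p = 0.230). After it came ASPM, a spindle pole protein, at 0.61 (SE 0.24, edgeR adjusted p = 0.340) and KIF11, the motor that pushes the spindle poles apart, at 0.57 (SE 0.23, edgeR adjusted p = 0.353). At the low end, BIRC5 had -1.17 (SE 0.21, edgeR adjusted p = 0.0754) and CENPA, the histone H3 variant of centromeres, -0.14 (SE 0.18, edgeR adjusted p = 0.768).

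CDK1 had a log2 fold change of 0.50 (SE 0.23, edgeR adjusted p = 0.391) and TOP2A of 0.51 (SE 0.28, edgeR adjusted p = 0.477) upon H2A.Z.2 depletion, both with both libraries above every control. The values were 0.45 for BUB1 (SE 0.31), 0.36 for MKI67 (SE 0.26), 0.30 for CCNB1 (SE 0.45) and 0.22 for FOXM1 (SE 0.19). Those of PLK1 (0.18, SE 0.18), CDC20 (0.12, SE 0.32), MYBL2 (0.10, SE 0.12) and AURKB (-0.01, SE 0.29) were nearer to 0. Against siCtrl 3 alone, ANLN and PBK, a mitotic kinase, were up-regulated and BIRC5 was down-regulated, and no other member was called (all genes, 8.99% up and 5.19% down). Against siCtrl 4 alone 47 were up-regulated and 1, BIRC5, was down-regulated (all genes, 16.9% up and 12.7% down). ANLN had 0.58 (SE 0.07, edgeR adjusted p = 0.00125) against siCtrl 3 and 1.42 (SE 0.08, edgeR adjusted p = 0.000269) against siCtrl 4. BIRC5 had -1.41 (SE 0.06, edgeR adjusted p = 3.09e-05) and -0.87 (SE 0.08, edgeR adjusted p = 0.000702).

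Upon combined depletion 2 mitosis genes, BIRC5 and CDC25B, were down-regulated and none was up-regulated (3.51% of the members, against 9.35% of all 16184 genes called down and 7.77% up). The log2 fold change of BIRC5 was -1.31 (SE 0.21, edgeR adjusted p = 0.0113) and that of CDC25B -0.71 (SE 0.12, edgeR adjusted p = 0.0127). NEK2, with both libraries below every control, had -0.99 (SE 0.29, edgeR adjusted p = 0.0583) and was not called. The highest members were KIF18A, a motor that damps the movements of chromosomes, at 0.52 (SE 0.30, edgeR adjusted p = 0.274), ASPM at 0.49 (SE 0.24, edgeR adjusted p = 0.196) and ANLN at 0.43 (SE 0.29, edgeR adjusted p = 0.333). Over the members the median was 0.11, over all genes tested -0.01. In 7 members both combined libraries were below all 4 controls (all genes, 25.6%) and in 6 above (all genes, 23.0%). DESeq2 called 3 members, all down (all genes, 1552 up and 2187 down of 22394). Without either combined library no member was called.

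FOXM1 had a log2 fold change of -0.38 (SE 0.20, edgeR adjusted p = 0.227) upon combined depletion and MYBL2 of -0.24 (SE 0.13, edgeR adjusted p = 0.232), both with the combined libraries below every control. CDK1 was at 0.32 (SE 0.23) and BUB1 at 0.15 (SE 0.32), while CCNB1, TOP2A, CDC20, MKI67, AURKB and PLK1 lay between -0.11 and 0.03. Against siCtrl 3 alone 22 members were down-regulated and 0 up-regulated (all genes, 20.3% down and 18.4% up). Against siCtrl 4 alone 3 were down-regulated and 41 up-regulated (all genes, 24.1% down and 23.9% up). BIRC5, CDC25B and NEK2 were down against both, and 10 members were down against siCtrl 3 and up against siCtrl 4, CCNB1, TOP2A, AURKB and CDC20 among them. Here too the shares of all genes with these patterns were not counted. NEK2 had -1.32 (SE 0.10, edgeR adjusted p = 1.55e-06) against siCtrl 3 and -0.56 (SE 0.12, edgeR adjusted p = 0.00395) against siCtrl 4. The 3 depletions share their control libraries, so their values against controls are not independent of each other.

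The depletions were also compared with each other, which needs no control library as an arm. H2A.Z.1 depletion gave lower levels than H2A.Z.2 depletion in 15 of the 57 mitosis genes and higher levels in 0 (all genes, 18.4% lower and 13.9% higher). The median log2 difference was -0.51 over the members and -0.01 over all genes tested, and 55 of 57 were below 0. In that fit the 4 control libraries are 1 group, so the gap between control siRNAs adds to the spread of mitosis genes. With the control siRNAs as 2 groups, a setting chosen after seeing the data, 41 members were lower and 1, BIRC5, was higher (all genes, 26.6% lower and 21.4% higher). The median was then -0.51, and the SE of CCNB1 went from 0.45 to 0.08.

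The lowest member of this comparison was CDC25B, at -1.30 (SE 0.12, edgeR adjusted p = 8.71e-05) with the controls as 1 group. CKAP2, a microtubule-binding protein of the spindle, followed at -1.22 (SE 0.29, edgeR adjusted p = 0.0115), then PRC1, which bundles the microtubules of the central spindle, at -1.16 (SE 0.29, edgeR adjusted p = 0.0154). FOXM1 (-1.07, edgeR adjusted p = 0.00324), TOP2A (-0.97, adjusted p = 0.0270) and PLK1 (-0.76, adjusted p = 0.0124) were also lower. MKI67 (-0.78, adjusted p = 0.0501), CDK1 (-0.58, adjusted p = 0.0956), BUB1 (-0.49, adjusted p = 0.265), CCNB1 (-0.47, adjusted p = 0.452) and MYBL2 (-0.35, adjusted p = 0.0583) were called only with the control siRNAs as 2 groups. With 1 library of either arm left out, 3 to 5 members were called, CDC25B, ESPL1 and FOXM1 each time. CDC20 (-0.30) and AURKB (-0.23) were called in neither. The highest were BIRC5 at 0.44 (SE 0.20, edgeR adjusted p = 0.132), BUB3 at 0.23 (SE 0.09, edgeR adjusted p = 0.0803) and HMMR, a spindle assembly factor, at -0.03 (SE 0.24, edgeR adjusted p = 0.932). With the control siRNAs as 2 groups, 9 of 11 entry genes, 6 of 8 kinetochore genes, 6 of 8 kinesins, 6 of 8 other spindle proteins, 3 of 5 checkpoint genes and 3 of 5 anaphase genes were lower. All 3 chromosome genes, all 3 cytokinesis genes and both transcription factors were lower too, and of the 4 passenger genes only BIRC5 was called.

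By their estimates, combined depletion lay above H2A.Z.1 and below H2A.Z.2 depletion in 50 of the 57 members. BUB3 lay between them in the reverse order. The share over all genes was not counted, so this order cannot be called particular to mitosis genes. Against H2A.Z.2 depletion, combined depletion gave lower levels in 3 members, NEK2, CDC25B and ESPL1, and higher levels in 0 (all genes, 9.05% lower and 4.77% higher). The log2 differences were -1.12 (SE 0.28, edgeR adjusted p = 0.0305) for NEK2, -0.87 (SE 0.12, edgeR adjusted p = 0.00207) for CDC25B and -0.57 (SE 0.15, edgeR adjusted p = 0.0327) for ESPL1. Without either library of either arm, only CDC25B was called. PRC1 had the third lowest value, -0.82 (SE 0.29, edgeR adjusted p = 0.0996), and the highest were BUB3 (0.12, SE 0.09), KIF14 (0.09, SE 0.31) and KIF18A (0.08, SE 0.31). With the control siRNAs as 2 groups, 18 members were lower and 0 higher (all genes, 18.3% lower and 12.6% higher), among them FOXM1 (-0.61), TOP2A (-0.53), MYBL2 (-0.35), MKI67 (-0.34) and CCNB1 (-0.33). PLK1 (-0.31), BUB1 (-0.31), CDK1 (-0.19), CDC20 (-0.12) and AURKB (-0.09) were not called.

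Against H2A.Z.1 depletion, combined depletion gave no called member by edgeR (all genes, 2.64% higher and 1.15% lower). DESeq2 called 1, higher (all genes, 798 higher and 450 lower of 23089). At an unadjusted p under 0.05 were 5 of the 57 members and 3161 of all 16486 genes tested. Of the 57 members 54 were above 0, with a median of 0.27 where that of all genes was 0.01. With the control siRNAs as 2 groups, 21 were higher and 1, BIRC5, was lower (all genes, 11.9% higher and 7.49% lower). In that fit CKAP2 had 0.60 (SE 0.09, edgeR adjusted p = 0.00101), CENPF, a large kinetochore protein, 0.58 (SE 0.07, edgeR adjusted p = 0.000269), CCNB2 0.50 (SE 0.08, edgeR adjusted p = 0.00152) and BIRC5 -0.59 (SE 0.09, edgeR adjusted p = 0.000612). FOXM1 (0.46), PLK1 (0.45), TOP2A (0.45), MKI67 (0.44) and CDK1 (0.39) were higher as well. BUB1 (0.18), CDC20 (0.17), CCNB1 (0.14), AURKB (0.14), MYBL2 (0.00), BUB3 (-0.11) and UBE2S, which extends ubiquitin chains for the anaphase-promoting complex (-0.06), were not called. NEK2 had a log2 difference of 0.04 (SE 0.12, edgeR adjusted p = 0.858) between combined and H2A.Z.1 depletion.

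**Figure D5:**
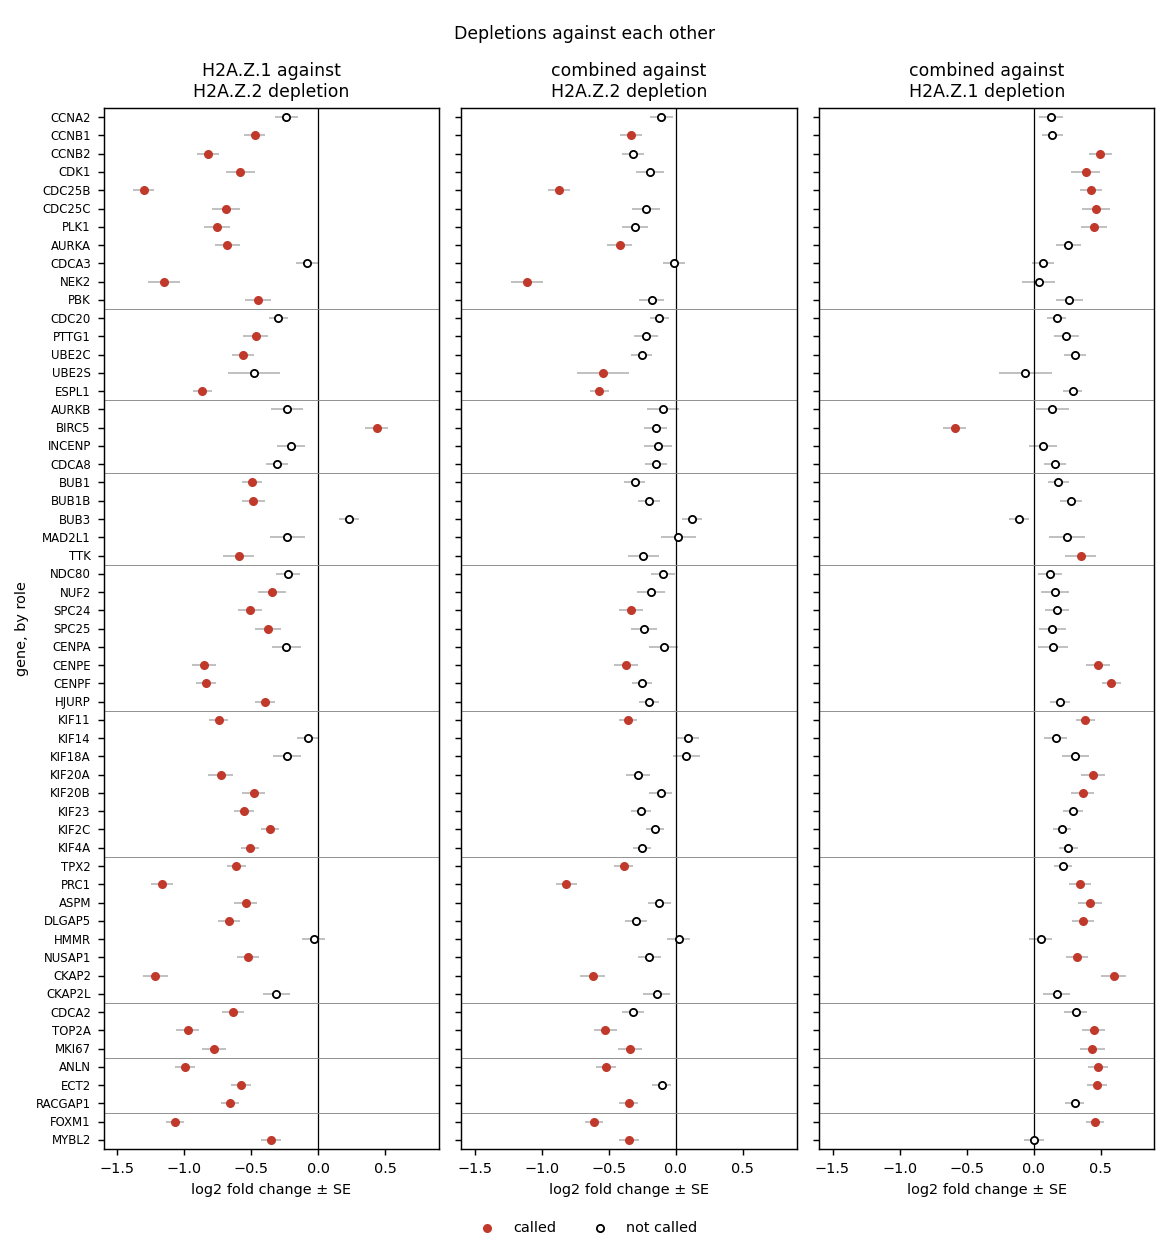
Log2 difference ± SE of each mitosis gene (rows, by role) between pairs of depletions, from the fit with the control siRNAs as 2 groups, with called genes in red. Most genes are lower upon H2A.Z.1 than upon H2A.Z.2 depletion and combined depletion lies between them, while BIRC5 is lowest upon combined depletion and higher upon H2A.Z.1 than upon H2A.Z.2 depletion.

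The non-additive effect asks whether the combined depletion departs from the sum of the single depletions on the log2 scale. No mitosis gene was called by edgeR (all genes called, 0.0667% up and 0.0728% down) or by DESeq2. At an unadjusted p under 0.05 were 0 members and 1641 of all 16486 genes tested. The 3 members with the smallest p were BIRC5 at 0.58 (SE 0.27, edgeR adjusted p = 0.535), CDC25B at 0.28 (SE 0.16, edgeR adjusted p = 0.634) and BUB3 at -0.19 (SE 0.12, edgeR adjusted p = 0.663). CENPA (0.29, SE 0.24) was also among the highest. ANLN (-0.46, SE 0.38), CKAP2L (-0.30, SE 0.22) and CDCA8 (-0.29, SE 0.27) were the lowest. With siCtrl 3 alone as control 15 members were called up and 0 down (all genes, 6.22% up and 4.83% down). With siCtrl 4 alone 0 were called up and 26 down (all genes, 8.18% up and 8.72% down). CCNB1 had 0.36 (SE 0.10, edgeR adjusted p = 0.0361) with siCtrl 3 and -0.996 (SE 0.14, edgeR adjusted p = 0.000834) with siCtrl 4, opposite in direction. BIRC5 had 0.82 (SE 0.12, edgeR adjusted p = 0.00267) and 0.27 (SE 0.14, edgeR adjusted p = 0.213), and ANLN -0.10 (SE 0.10, edgeR adjusted p = 0.562) and -0.95 (SE 0.13, edgeR adjusted p = 0.000744).

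The promoter letters shown above were set beside these values, as a description. In siCtrl 4 against siCtrl 3, the 33 members with CHR letters had a median log2 difference of -0.68 and the 14 without of -0.74. Upon H2A.Z.1 depletion the medians were -0.17 with and -0.34 without the CHR letters, and upon H2A.Z.2 depletion 0.36 and 0.18. Upon combined depletion they were 0.16 and -0.10. The ranges overlapped in each comparison, from -0.70 to 0.23 with and from -1.15 to -0.03 without the letters upon H2A.Z.1 depletion. CCNB2, with its 4 CCAAT boxes and CHR, had a log2 fold change of -0.50 (SE 0.28, edgeR adjusted p = 0.223) upon H2A.Z.1 depletion, and NEK2, with no CHR letters, the value given above. For the siRNAs, the seed letters stood in the 3' untranslated region of 2 of 57 members for siH2A.Z.1, PRC1 and CKAP2 (3.51%, against 10.3% of 17223 genes). These were 6th and 4th from the bottom of the 57 upon H2A.Z.1 depletion, PRC1 at -0.70 (SE 0.30, edgeR adjusted p = 0.129) and CKAP2 at -0.76 (SE 0.30, edgeR adjusted p = 0.102), and a part of the seed in this was not tested. For siH2A.Z.2 they stood in 5 of 57, BUB3, CENPA, KIF2C, UBE2S and NUSAP1 (8.77%, against 17.8%), with log2 fold changes upon H2A.Z.2 depletion between -0.14 and 0.36. None of the 5 members called down with siH2A.Z.1 held its seed letters there.

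Other genes of cell division were read from fixed lists, which were chosen with earlier results of these data known. The calls given next are upon H2A.Z.1 depletion against the 4 controls, where 12.2% of all genes were called up and 15.7% down. The ends of each list are named by rule, and the other called genes were named after their values were seen. The anaphase-promoting complex, the ubiquitin ligase that CDC20 activates, had 1 of 15 up and 2 down. ANAPC13, a small scaffold subunit, was its lowest gene at -2.02 (SE 0.31, edgeR adjusted p = 0.00527), ANAPC1 was down too, ANAPC16 was up and ANAPC10, not called, was highest at 0.57. Condensin, which compacts chromosomes, had 0 of 8 up and 0 down by edgeR and 0 called by DESeq2. At an unadjusted p under 0.05 it had 0 (all genes, 6704 of 16112), and it ran from SMC4 (-0.48) to SMC2 (0.44). Cohesin, which holds sister chromatids together, and its protectors had 1 of 14 up and 0 down, SMC3 at 0.55 (SE 0.11, edgeR adjusted p = 0.0131), and SGO2 was lowest at -0.08. The other kinetochore genes had 2 of 28 up and 2 down. CENPQ was highest of them at 0.95 (SE 0.13, edgeR adjusted p = 0.00325), ZW10 was up, PMF1 and ZWINT were down, and SKA2 was lowest at -1.20 (SE 0.40, edgeR adjusted p = 0.0650) and not called.

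Genes of the DREAM and MuvB complexes had 1 of 11 up and 0 down, LIN54, the subunit that binds the CHR. Their ends, RBL1 at 0.76 and E2F5 at -0.75, were not called. Other G2/M genes had 2 of 32 up and 2 down. HMGB2, a chromatin protein, was highest at 0.42 (SE 0.13, edgeR adjusted p = 0.0498), and CDC25A was up, while PSRC1 and WEE1, the kinase that holds CDK1 inactive, were down and AURKC was lowest at -1.09 and not called. The genes of G1/S and S phase had 3 of 33 up and 4 down. E2F1 was lowest of them at -0.68 (SE 0.17, edgeR adjusted p = 0.0243), CCNE1, TK1 and UHRF1 were down too, CCNE2, E2F2 and SLBP were up, and POLA1, not called, was highest at 0.67.

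With siCtrl 4 against siCtrl 3, where 17.3% of all genes were called lower, the genes called lower were 7 of 8 for condensin, 16 of 28 for other kinetochore genes, 19 of 32 for other G2/M genes and 20 of 33 for G1/S and S phase genes. The medians of these lists were -0.66, -0.47, -0.45 and -0.40, against -0.68 for the mitosis genes. Among other G2/M genes AURKC was called higher, and the other 3 of these lists had no gene called higher. Cohesin and its protectors had 6 of 14 lower and none higher. The anaphase-promoting complex had 4 of 15 lower and 1, ANAPC13, higher, and DREAM and MuvB genes had 3 of 11 lower (LIN9, RBL1 and RBL2) and 2 higher (LIN37 and RBBP4). Of the regulators that hold mitosis genes back, CDKN1A, the p21 inhibitor of cyclin-dependent kinases, measured 363 and 367 CPM with siCtrl 3, 445 and 394 with siCtrl 4, 328 and 316 with siH2A.Z.1, 319 and 285 with siH2A.Z.2 and 290.4 and 319 with both. It was highest in the siCtrl 4 libraries, by a log2 difference of 0.20 (SE 0.09, edgeR adjusted p = 0.0868), and had -0.29 (SE 0.11, edgeR adjusted p = 0.0856) upon H2A.Z.1 depletion, neither of them called. Upon H2A.Z.1 depletion E2F7, a repressor of the E2F family (-0.56, edgeR adjusted p = 0.00688), was down-regulated and RB1 (0.61, adjusted p = 0.00976) was up-regulated, while E2F8 (0.16, adjusted p = 0.502) was not called. Upon H2A.Z.2 depletion against the 4 controls no list had a called gene by edgeR, with at most 5 of a list at an unadjusted p under 0.05 and at most 1 of a list called by DESeq2, and upon combined depletion RB1 (0.81, adjusted p = 0.00620) was the only regulator called.

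Like the mitosis genes, these lists gave other counts against each control siRNA alone. Upon H2A.Z.1 depletion condensin had 0 up and 4 down against siCtrl 3 and 4 up and 0 down against siCtrl 4. Other kinetochore genes had 3 up and 7 down against siCtrl 3 and 18 up and 3 down against siCtrl 4. With siCtrl 3 first and siCtrl 4 second, the counts were 1 up and 13 down, then 11 up and 3 down, for other G2/M genes, 3 up and 10 down, then 13 up and 4 down, for G1/S and S phase genes, and 2 up and 2 down, then 9 up and 0 down, for cohesin and its protectors. In the same order, the anaphase-promoting complex had 2 up and 4 down, then 5 up and 3 down, and DREAM and MuvB genes 4 up and 2 down, then 3 up and 3 down. Upon H2A.Z.2 depletion against siCtrl 4 alone, 7 of 8 condensin genes, 21 of 28 other kinetochore genes, 21 of 32 other G2/M genes and 17 of 33 G1/S and S phase genes were up-regulated. Against siCtrl 3 alone these were 0, 2, 0 and 2. Upon combined depletion the same lists had 7, 22, 17 and 16 up against siCtrl 4 and 1, 6, 1 and 1 against siCtrl 3. The shares of all genes called against each control siRNA are those given for the mitosis genes.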

How the data were processed

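U2OS cells were transfected with siRNAs for 3 days, and total RNA of the 10 samples was depleted of ribosomal RNA, made into strand-specific libraries and sequenced together. Per the study's methods, reads were aligned to hg38 with STAR, handled with SAMtools and assigned to RefSeq genes with HTSeq 0.6.1, using strand, and the values deposited by the authors are these raw counts per gene and sample. Deposited tables of the authors' own DESeq2 1.22.1 comparisons were not used. Groups came from the sample labels, which name control siRNAs 3 and 4. The members and gene lists were chosen with earlier results of these data known.

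Genes were kept by filterByExpr, scaled by TMM and tested with the quasi-likelihood F test of edgeR 4.0.16 (limma 3.58.1, R 4.3.3), each depletion against the 4 control libraries and siCtrl 4 against siCtrl 3. Depletions were compared with each other, and the non-additive effect tested, in 1 fit of 10 libraries with the 4 controls as 1 group. Adjusted p-values (Benjamini-Hochberg) cover all genes tested, and a gene was called at an adjusted p under 0.05 and a fold change above 1.25. The SE of a log2 fold change was its size over the square root of F. All 57 members passed the filter. The scripts were tested on simulated data. Libraries held 16716990 to 26946836 counts, and counts per member and library were at least 258. Pseudogene copies can take reads of PTTG1, so its values are uncertain. Any member may be named. Values were given by rule for the ends of each role group upon H2A.Z.1 depletion, for the 3 lowest and 3 highest members of every other comparison and for 10 genes (AURKB, BUB1, CCNB1, CDC20, CDK1, FOXM1, MKI67, MYBL2, PLK1 and TOP2A), and for the ends of other lists upon H2A.Z.1 depletion. For the non-additive effect these were also the 3 with the smallest p. Other genes are said to be named after their values were seen. The result of 1 listed regulator is not reported here.

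Alternatives were DESeq2 1.42.0, RLE and upper-quartile factors, library size only, other count filters (none, or at least 1 CPM in 2 libraries), each control siRNA alone, 1 fit of all 10 libraries, a replicate block, no fold threshold, a fold change above 2 and leaving out each library. Promoter, transcript and exon data came from RefSeq (GRCh38.p14) and GENCODE v44, in Python 3.11.15 with numpy 2.4.6, pandas 2.3.3, scipy 1.17.1 and matplotlib 3.10.9.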

Additional observations from a re-analysis of the deposited data

How the results depend on the processing

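The number of mitosis genes called rested on the control siRNA. Upon H2A.Z.1 depletion 5 were called against the 4 control libraries as 1 group, 41 against siCtrl 3 alone and 27 against siCtrl 4 alone. In 1 fit of all 10 libraries 9 were called, all down (all genes, 2648 up and 3119 down of 16486). With the control siRNAs as 2 groups (chosen after seeing the data) there were 17, all down (all genes, 3716 up and 4215 down of 16112). DESeq2 called 8, all down (all genes, 2221 up and 2975 down of 22385), and 2 were called at a fold change above 2. With either siCtrl 3 library left out 3 were called, and with either siCtrl 4 library left out 7. Upon H2A.Z.2 depletion, in place of 0, 3 were called against siCtrl 3 alone, 48 against siCtrl 4 alone, 1 in 1 fit and 1 by DESeq2. With 2 control groups there were 36, with 35 up and 1 down (all genes, 1917 up and 1030 down of 16188). With any control library left out there were 0. Upon combined depletion, in place of 2, 22 were called against siCtrl 3 alone, 44 against siCtrl 4 alone and 1 at a fold change above 2. With 2 control groups there were 18, with 12 up and 6 down (all genes, 3369 up and 3263 down of 16184). With a control library left out there were 2 or 3. For siCtrl 4 against siCtrl 3, 51 became 4 at a fold change above 2 and 47 to 50 with a library left out. The non-additive effect, 0, became 15 with siCtrl 3 alone and 26 with siCtrl 4 alone, and stayed at 0 with any library left out. Combined against H2A.Z.1 depletion, 0, became 1 by DESeq2, 22 with 2 control groups and 0 with a library left out. Combined against H2A.Z.2 depletion, 3, became 18 with 2 control groups, 1 at a fold change above 2 and 1 with a library left out. H2A.Z.1 against H2A.Z.2 depletion, 15, became 42 with 2 control groups, 5 at a fold change above 2 and 3 to 5 with a library left out. Leaving out a depleted library, or any library of siCtrl 4 against siCtrl 3, leaves that arm with 1, which is assumed to vary like the other groups. Where the 4 controls form 1 group, leaving out a control library leaves that group with 3.

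Directions reversed with siCtrl 4 alone upon H2A.Z.1 depletion for CCNB1 (0.65), CDC20 (0.37), BUB1 (0.49), BUB1B (0.32), KIF20A (0.35) and ANLN (0.42), and upon combined depletion for CCNB1 (0.81), AURKB (0.37) and TOP2A (0.46). They reversed with siCtrl 3 alone for CDC20 upon combined depletion (-0.40) and for the non-additive effect of CCNB1 (0.36), and with siCtrl 4 alone for that of CDC20 (-0.50). Of 2081 values of named genes under an alternative, 1909 kept their side of the threshold (108 of them changed sign, called in neither fit), 124 passed it newly, 36 no longer passed and 12 reversed.

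No label ties replicate numbers to a shared batch. Deviations of same-numbered libraries correlated at 0.08 to 0.28 between the groups other than combined depletion and at -0.29 to -0.13 with it, so pairing, with the combined numbers exchanged, is a hint from the data only. With the replicate block 2 members were called upon H2A.Z.1 depletion, 1 in combined against H2A.Z.2 depletion and 10 in H2A.Z.1 against H2A.Z.2 depletion. With the pairing of the combined libraries crossed, chosen after seeing the data, 2 were called upon combined depletion, 0 in combined against H2A.Z.1 and 4 in combined against H2A.Z.2 depletion.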
